A study of Zea mays with 10 samples.

Results

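The RNA make-up of maize endosperm that lacks the transcription factor Opaque-2 was described from the 3 libraries of the opaque-2 mutant (o2), out of 10 samples in the series. The libraries were chosen by their genotype label, B73o2, an o2 mutant in the background of the inbred line B73, and all 28580 gene IDs of the expression table were kept. Endosperm was dissected from kernels of greenhouse plants 15 days after self-pollination, and polyadenylated RNA was sequenced. The labels do not name the mutant allele. The other samples are 3 RNA libraries of wild-type B73 (WT) of the same age, whose values are set beside the mutant in a few places and were not tested against it, and 4 ChIP samples, which were not used. The labels number the replicates but do not tell whether they are separate plants or ears, so the spread between them may be technical.

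The endosperm is the storage tissue of the kernel. Its starchy cells fill with starch granules and with protein bodies made of zeins, the prolamins of maize, which fall into alpha, beta, gamma and delta classes. Opaque-2 is a bZIP factor known to activate storage protein genes, above all those of the 22-kDa alpha zeins. Thinner layers surround the starchy cells: the basal transfer layer, which takes up sugar and amino acids from the mother plant, the embryo-surrounding region and the aleurone.

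The o2 libraries held 66795114, 59257436 and 61912576 reads in replicates 1 to 3, of which 72.1%, 71.6% and 71.9% mapped uniquely and 21.0%, 21.7% and 20.8% mapped to several places. Levels are RPKM, reads per kilobase of gene on a scale set by the authors, so genes within a library can be compared with each other per length. How the libraries were scaled to each other is not stated. The median ID had 1.56, 1.56 and 1.57 RPKM in the 3 libraries, but the summed RPKM was 207907, 207265 and 264781. Replicate 3 thus stood apart at the top of the range and not in the middle, and results that rest on it are given with and without it. The o2 gene itself (GRMZM2G015534) had 0.212, 0.173 and 0.254 RPKM, a mean of 0.213 ± 0.0401 (SD, n = 3) and ranked 26838 of the 28580 IDs, low in every o2 library.

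Of the 20 IDs of highest mean RPKM in o2 endosperm, 11 had no gene name, among them those at ranks 1, 2, 4, 5 and 7. The 9 with a name were, in order of level, the gamma zeins gz27 and gz16, grp1, the legumin leg1, the gamma zein gz50, fl3, sdh1, the glycolytic gene gpc3 and the starch synthesis gene wx1. No alpha zein with a name was among them. The mean level ran from 1189.7 RPKM at rank 20 (GRMZM2G090962) to 5453 RPKM at rank 1 (GRMZM2G518638). Of the 100 highest IDs, 34 had a name and 25 belonged to 1 of the gene lists described below.

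**Figure D1:**
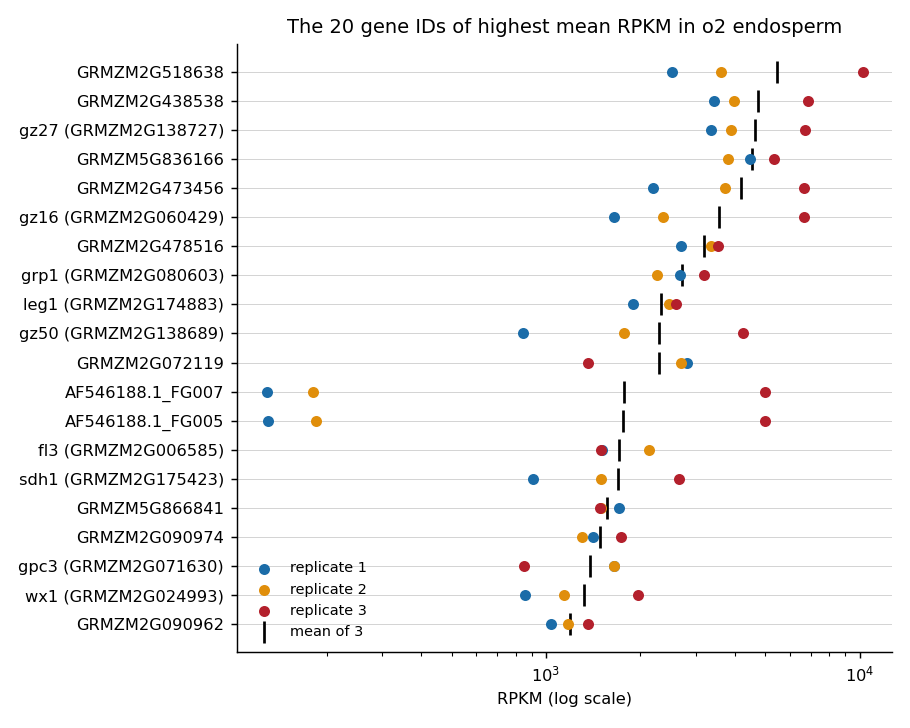
RPKM (log scale) of the 20 gene IDs with the highest mean in o2 endosperm, with 1 coloured point per library and a bar at the mean of the 3 libraries. AF546188.1_FG007 and AF546188.1_FG005 are the IDs whose replicate 3 lies furthest from the other libraries, near 5000 RPKM against 129 to 185 RPKM.

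Among storage protein genes, gz27 (GRMZM2G138727), the 27-kDa gamma zein that forms the shell of protein bodies, had 3351, 3884 and 6669.7 RPKM in replicates 1 to 3, a mean of 4635 ± 1782 (SD, n = 3). The 16-kDa gamma zein gz16 (GRMZM2G060429) had 1648, 2352 and 6652 RPKM. The 50-kDa gamma zein gz50 (GRMZM2G138689) had 847, 1776 and 4252 RPKM. All 3 gamma zeins were highest in replicate 3, and gz16 and gz50 lay there more than 2-fold above both other libraries. The legumin leg1 (GRMZM2G174883), a globulin-type storage protein, had 1899.7, 2459 and 2598 RPKM, a mean of 2319 ± 369.5 (SD, n = 3), with a smaller spread than the gamma zeins. The globulin gene glb3 (GRMZM2G410134) had 349.9, 452 and 916 RPKM, again highest in replicate 3.

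The gene fl3 (GRMZM2G006585), the floury3 locus, which encodes a PLATZ protein tied to transcription by RNA polymerase III, ranked 14 among all IDs. Its level was 1506, 2123 and 1499 RPKM, a mean of 1709 ± 359 (SD, n = 3). Replicate 2 was the highest and the other libraries were nearly equal. The gene listed as grp1 (GRMZM2G080603) had 2665, 2265 and 3188 RPKM, and sdh1 (GRMZM2G175423) had 909, 1502 and 2659.6 RPKM. Of the other opaque and floury loci, O10 (GRMZM2G346263) had 31.4 ± 8.36, FL1 (GRMZM2G094532) 28.6 ± 6.09 and o7 (GRMZM2G074759), an acyl-activating enzyme gene, 9.06 ± 0.613 RPKM (SD, n = 3 each). The alpha zein z1A1_6 (GRMZM2G353272), also named floury4, was higher, at 76.4, 146 and 980 RPKM, mostly through replicate 3. The alpha zein z1C2 (GRMZM2G397687), also named floury2, had 4.16 ± 0.844 RPKM (SD, n = 3).

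Several of the highest IDs kept a nearly fixed ratio to another ID in every RNA library. Among the 74 IDs of 300 RPKM or more, pairs were linked where the ratio varied by less than 5% (SD of the natural log ratio) over all 6 RNA libraries. This linked 45 IDs in 19 groups, which took in 16 of the 20 highest IDs. GRMZM2G438538, at rank 2, was 1.02 times gz27 in each of the o2 libraries. GRMZM2G518638, at rank 1, was 1.54 times gz16 in each, and GRMZM5G836166, at rank 4, was 1.68 times grp1. GRMZM2G473456 was 2.41, 2.48 and 2.50 times sdh1, GRMZM2G478516 was 1.42, 1.36 and 1.36 times leg1, and GRMZM2G072119 was 1.71, 1.63 and 1.59 times gpc3. These partners have no gene name in the reference table. Whether such IDs are overlapping models that count the same reads, near-identical copies or genes that vary together was not tested, so the top of the ranking may list some transcripts more than once.

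The summed RPKM was spread over many IDs. The 10 highest IDs by mean held 12.4%, 15.1% and 21.1% of it in replicates 1 to 3, a mean of 16.2% ± 4.48 (SD, n = 3). The 100 highest held 34.1%, 36.4% and 46.6%, a mean of 39.0% ± 6.64, and the 1000 highest 62.6% ± 4.61 (SD, n = 3 each). To reach 50% of a library's sum took 452, 411 and 145 IDs. Replicate 3 was the most concentrated by each of these measures. In the WT libraries, measured in the same way, 6 to 10 IDs reached 50% of the sum and the 10 highest held 52.4% to 74.2%, values outside the range of the mutant libraries. The WT summed RPKM itself ran from 696998 to 2588142, at medians of 1.56 to 1.60 RPKM, close to those of the mutant. With 1 ID kept for each group of parallel IDs, a setting added once the data had been seen, the share of the 100 highest was 29.9% and the mean number of IDs that reached 50% was 647 in place of 336.

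**Figure D2:**
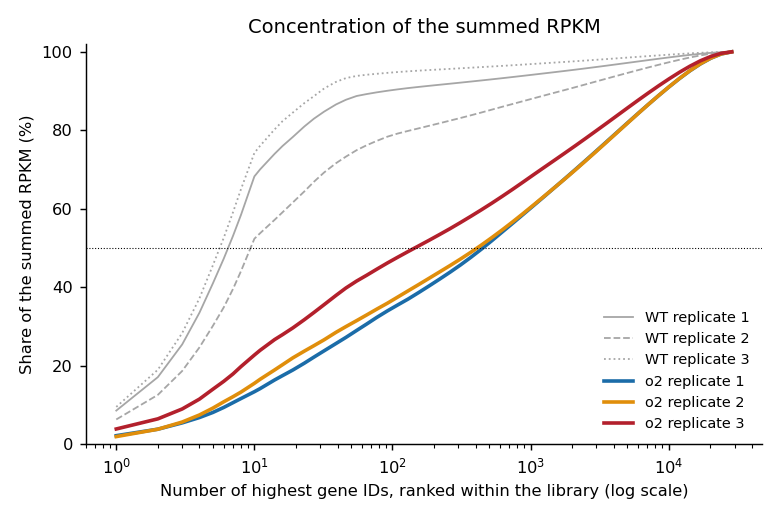
Share of the summed RPKM (%) held by the highest gene IDs, ranked within each library (log scale), for 3 o2 (coloured) and 3 WT (grey) libraries. The o2 curves cross 50% (dotted line) at 145 to 452 IDs, the WT curves at 6 to 10.

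The leading IDs were shared in part between the o2 libraries. Of the 10 highest IDs of each library, 6 were shared by all 3, of the 20 highest, 12 were, and of the 100 highest, 79 were. As 16 of the 20 highest by mean lay in parallel groups, such counts may hold some transcripts more than once. Replicates 1 and 2 shared 17 of their 20 highest IDs, while replicate 3 shared 12 with replicate 1 and 15 with replicate 2. The IDs AF546188.1_FG007 and AF546188.1_FG005, which have no gene name, owed their place to replicate 3. AF546188.1_FG007 had 129, 181 and 5000 RPKM and moved from rank 12 to rank 119 by the mean of replicates 1 and 2. By that mean gz16 moved from rank 6 to 10 and gz50 from 10 to 15, while gz27 stayed at rank 3.

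Most IDs were low. Of the 28580, 18132 (63.4%) had a mean of 1 RPKM or more, 2867 (10.0%) of 10 or more, 206 (0.721%) of 100 or more and 22 (0.0770%) of 1000 or more. The class from 1 to under 10 RPKM was the most populated, with 15265 IDs (53.4%), and 9957 (34.8%) lay from 0.1 to under 1. The 22 IDs of 1000 RPKM or more held 24.1% ± 5.72 of the summed RPKM, the 184 from 100 to under 1000 held 21.4% ± 0.892, the 2661 from 10 to under 100 held 30.2% ± 3.10 and the class from 1 to under 10 held 22.01% ± 2.72 (SD, n = 3 each). Single libraries had 18092, 17980 and 17851 IDs at 1 RPKM or more, and 16469 IDs reached it in all 3. Of the 22 IDs of 1000 RPKM or more, 14 reached that level in all 3 libraries, and without replicate 3 there were 18. The WT libraries had 18081 to 18281 IDs at 1 RPKM or more and 54 to 57 at 1000 or more, against 16, 19 and 30 in the o2 libraries. Such counts depend on the scale of each library, and its factor is not stated. Only 1 ID was at 0 in all o2 libraries and 6 to 13 were at 0 in a single o2 library, so the table holds few silent genes; the labels do not say how its IDs were selected.

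**Figure D3:**
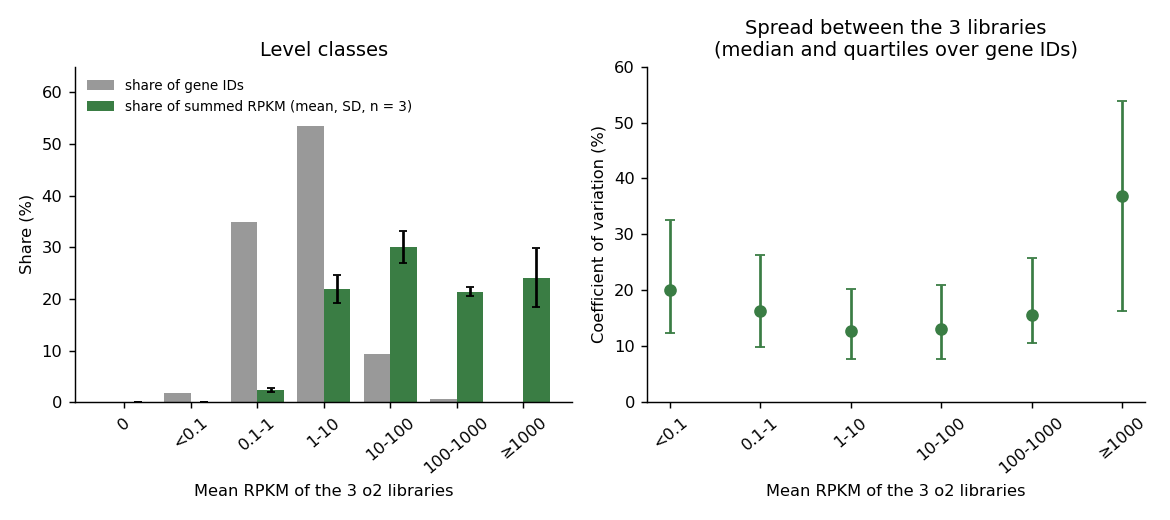
Left, share (%) of the 28580 gene IDs (grey) and of the summed RPKM (green, mean and SD, n = 3) in each class of mean RPKM in o2. Right, coefficient of variation (%) over the 3 libraries as median and quartiles over the IDs of a class; the median is 12.7% from 1 to under 10 RPKM and 36.9% at 1000 RPKM or more.

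Over all 3 libraries the spread was smallest at middle levels and largest at the top, where the excess rested on replicate 3. The median coefficient of variation (CV, the SD as a percent of the mean over 3 libraries) was 16.4% from 0.1 to under 1 RPKM, 12.7% from 1 to under 10, 13.01% from 10 to under 100, 15.5% from 100 to under 1000 and 36.9% at 1000 or more. On the log2(RPKM + 0.1) scale the median SD of the last 3 classes was 0.19, 0.23 and 0.54. The 22 IDs at the top were chosen with replicate 3 in their mean, and their median CV was 13.3% over replicates 1 and 2 alone. On that basis the median CV was 10.3% for IDs of 1 RPKM or more, 10.7% for 10 or more and 14.7% for 100 or more. These sets are nested, unlike the classes above. By class, the median absolute log2 difference between replicates 1 and 2 was 0.199 from 1 to under 10 RPKM and 0.212 from 10 to under 100. It was 0.300 from 100 to under 1000 and 0.273 at 1000 or more. Without replicate 3 the spread was thus still larger from 100 RPKM upwards, but the top was no longer the most variable. Replicate 3 was the highest library for 17 of these 22 IDs and the lowest for the other 5, never the middle one. Across IDs of 100 RPKM or more (n = 206), Pearson's r of the log2 values was 0.952 between replicates 1 and 2, 0.673 between 1 and 3 and 0.757 between 2 and 3, given as a description, since parallel IDs are not independent points. A difference of 2-fold or more was seen in 4 of these IDs between replicates 1 and 2 and in 42 between replicates 1 and 3.

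Of the 2867 IDs of 10 RPKM or more, 84 in replicate 3 lay 2-fold or more above both other libraries and 30 lay 2-fold or more below both. For replicate 1 these numbers were 11 and 25, and for replicate 2 they were 16 and 8. The mean behind the 10 RPKM minimum includes replicate 3 and so favours IDs that are high in it. Of the 18132 IDs of 1 RPKM or more, replicate 3 had 205 above and 209 below, with no excess upwards. A CV above 100% was found for 36 of the 2867 IDs, of which 29 were highest in replicate 3 and 10 were in the zein lists. The zein lists had 14 IDs of 10 RPKM or more. A CV under 5% was found for 323.

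The 19-kDa alpha zeins varied widely between libraries, with a median CV of 124% against 14.0% over all IDs. Their summed RPKM was 376, 613 and 4721 over 12 IDs, and all 12 were highest in replicate 3. Among the 28579 IDs above 0, 9644 were highest and 10208 lowest in replicate 3. The gene z1B_7 (GRMZM2G309832) had 10.2, 12.6 and 419.8 RPKM, a CV of 159.8%, the largest of any named gene of 10 RPKM or more. Its relative z1B_8 (GRMZM2G025763) had 7.62, 9.41 and 257 RPKM. Some z1A genes were higher than these in replicates 1 and 2 as well: z1A1_5 (GRMZM2G053120) had 106, 197 and 1223 RPKM and z1A1_6 (GRMZM2G353272) had 76.4, 146 and 980.2 RPKM. The list held 0.753% ± 0.894 of the summed RPKM (SD, n = 3) and 0.238% without replicate 3. The unnamed IDs AF546188.1_FG007 and AF546188.1_FG005 are not on it. They had 129, 181 and 5000 RPKM and 130, 185 and 4979 RPKM in replicates 1 to 3. On average they held 0.679% and 0.677% of the sum. Whether they are zeins was not tested. Zein copies can be near-identical and the treatment of multiply mapped reads is not stated, so levels of single alpha zein genes are uncertain, and the zein lists hold only IDs with a zein symbol, not the unnamed IDs parallel to them.

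The 22-kDa alpha zeins were low, and their sum was even across libraries. Their 11 IDs summed to 55.0, 47.0 and 48.7 RPKM, or 0.0225% ± 0.00403 of the total (SD, n = 3). As a share they held 0.0265%, 0.0227% and 0.0184% in replicates 1 to 3, lowest in replicate 3, where the total was largest. Of these IDs 9 had a mean of 1 RPKM or more and none had a mean of 10. The highest, z1C1_4 (GRMZM2G044625), had 10.9, 9.70 and 9.34 RPKM, and z1C1_11 (GRMZM2G088273), the lowest, had a mean of 0.0405 RPKM. Their median level of 4.42 RPKM was above the 1.59 RPKM of all IDs. Unlike the 19-kDa list, 1 of the 11 was highest in replicate 3; this difference between the lists was not tested.

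Of the beta and delta zeins, bz15 (GRMZM2G086294), the 15-kDa beta zein, had 7.62, 7.75 and 67.8 RPKM, and dzs18 (GRMZM2G100018), the 18-kDa delta zein, had 14.1, 13.5 and 27.1 RPKM. Both were highest in replicate 3 and ranked 991 and 1515. The 5 beta, gamma and delta zeins together held 4.46% ± 1.99 of the summed RPKM (SD, n = 3), 2.82%, 3.88% and 6.67% in replicates 1 to 3, nearly all of it in the 3 gamma zeins. The unnamed IDs parallel to gz16 and gz27, GRMZM2G518638 and GRMZM2G438538, are not on the list. They held a further 2.27% and 2.05% on average.

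**Figure D4:**
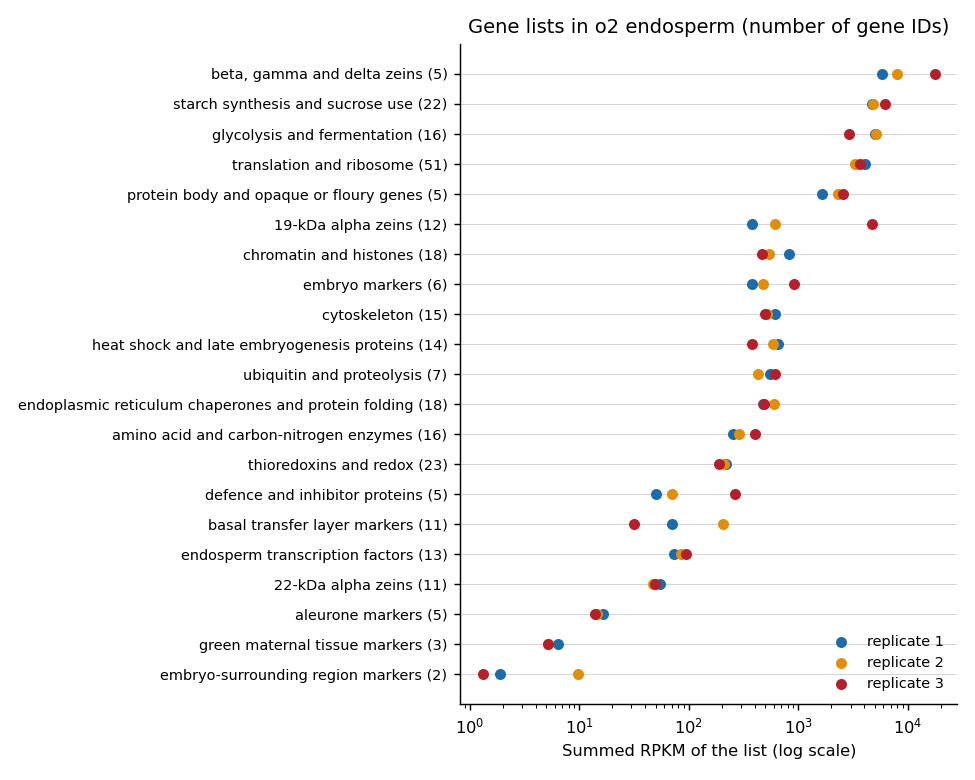
Summed RPKM (log scale) of each gene list in the 3 o2 libraries, 1 coloured point per library, with the number of gene IDs in brackets, ordered by the mean. The 19-kDa alpha zeins span 376 to 4721 RPKM, whereas the 22-kDa alpha zeins span 47.0 to 55.0.

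Genes of starch synthesis were among the highest, and their summed share was even between libraries, although their median CV of 14.4% was close to the 14.0% of all IDs. Of 22 IDs on the list, 20 had 1 RPKM or more and 7 had 100 or more, against 63.4% and 0.721% of all IDs, and the list's median was 35.8 RPKM. The small subunit of ADP-glucose pyrophosphorylase, bt2 (GRMZM2G068506), had 997, 995 and 975 RPKM, a CV of 1.20%, the smallest of any named gene of 10 RPKM or more. Its large subunit sh2 (GRMZM2G429899) had 660.4 ± 94.9 RPKM, the ADP-glucose transporter bt1 (GRMZM2G144081) 892 ± 110.2 and the sucrose synthase sh1 (GRMZM2G089713) 818 ± 117 RPKM (SD, n = 3 each). The granule-bound starch synthase wx1 (GRMZM2G024993) differed from them, with 855, 1140.2 and 1959 RPKM and its highest value in replicate 3. The branching enzyme ae1 (GRMZM2G032628) had 155 ± 16.7 and the starch phosphorylase pho1 (GRMZM2G074158) 115 ± 6.73 RPKM (SD, n = 3 each). The list held 2.28%, 2.31% and 2.36% of the summed RPKM, the most even share of any list with over 1% of the sum. The evenness of the list held for the share only, whereas that of bt2 held for its RPKM level. The share of bt2 was lowest in replicate 3. The list's own sum was 4740, 4796 and 6250 RPKM, highest in replicate 3, where the total was also largest. Of the 22 IDs, 11 were highest in replicate 3, against 9644 of the 28579 IDs above 0.

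Glycolytic genes were abundant and lower in replicate 3. Of 16 IDs on the list of glycolysis and fermentation, 15 had 1 RPKM or more, against 63.4% of all IDs. Of the 16, 13 were lowest in replicate 3, against 10208 of the 28579 IDs above 0. The cytosolic glyceraldehyde-3-phosphate dehydrogenase genes gpc3 (GRMZM2G071630) and gpc4 (GRMZM2G176307) had 1651, 1647 and 853 RPKM and 1302, 1299.9 and 541 RPKM. Enolase eno1 (GRMZM2G064302) had 631, 674 and 341 RPKM, and aldolase ald1 (GRMZM2G057823) 600.4, 583 and 344. In each of these 4 genes replicates 1 and 2 were close and replicate 3 was lower. Alcohol dehydrogenase adh1 (GRMZM2G442658), at 242, 341 and 355 RPKM, did not follow them. The list summed to 5040.1, 5177 and 2882 RPKM. The pyruvate phosphate dikinase gene PPDK2 (GRMZM2G097457), which works between glycolysis and amino acid synthesis, had 157, 206 and 323 RPKM and led the enzymes of amino acid and carbon-nitrogen metabolism. Of the 16 IDs on that list, 8 (50%) had 1 RPKM or more, below the 63.4% of all IDs. The list's median was 0.852 RPKM, against 1.59 over all IDs.

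**Figure D5:**
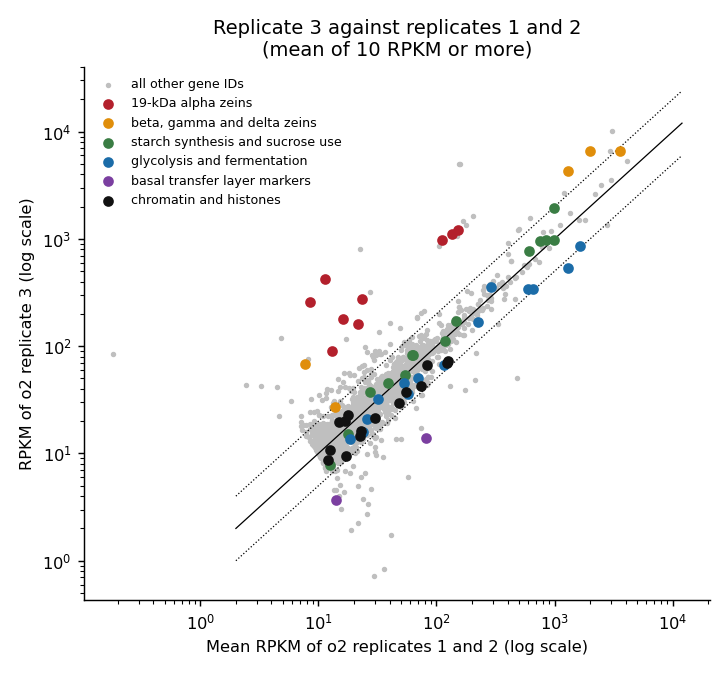
RPKM of o2 replicate 3 against the mean of replicates 1 and 2 (log scales) for IDs of 10 RPKM or more on average, with 6 gene lists in colour. The solid line marks equal levels and the dotted lines a 2-fold difference; 19-kDa alpha zeins lie above the upper dotted line and gpc4 and the basal transfer layer genes BETL1 and meg2 below the lower.

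The translation list was broad, and its median CV was below that of all IDs. Of 51 IDs, 50 had 1 RPKM or more and 41 had 10 or more, against 63.4% and 10.0% of all IDs. The median was 46.5 RPKM, against 1.59 over all IDs, and the median CV was 11.8%, against 14.0%. The list summed to 4088, 3326 and 3702 RPKM in replicates 1 to 3. Its share of the total was not even, at 1.97%, 1.60% and 1.40%. The elongation factor 1 alpha genes elfa2 (GRMZM2G149768) and elfa3 (GRMZM2G154218) had 598 ± 50.3 and 570.3 ± 54.7 RPKM (SD, n = 3 each). Both lay in 1 group of 4 parallel IDs, so their levels may count some transcripts more than once. TCTP (GRMZM2G075624), the translationally controlled tumour protein gene, had 147 ± 2.41 RPKM (SD, n = 3). Other named genes with a CV of 2.27% or less were the glutathione transferase gst1, the ribosomal protein RPL19, the actin act1, the splicing factor RS2Z35, the catalase cat1 and UCE, at 12.3 to 56.6 RPKM. Histone and chromatin genes had a median CV of 34.4% and summed to 829, 544 and 471 RPKM over 18 IDs, highest in replicate 1; the histone his2a1 (GRMZM2G305046) had 149, 101 and 73.5 RPKM.

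In the list of endoplasmic reticulum folding factors, which help zeins into protein bodies, the protein disulfide isomerase pdi (GRMZM2G091481) had 231, 318 and 270.1 RPKM. The chaperone bip1 (GRMZM2G114793), an endoplasmic reticulum Hsp70, had 44.6, 78.9 and 39.8 RPKM, highest in replicate 2, as was bip2 (GRMZM2G415007) at 28.4, 46.2 and 22.4 RPKM. Of 18 IDs, 16 (88.9%) had 1 RPKM or more, against 63.4% of all IDs, and the median was 6.96 RPKM, against 1.59. Defence and inhibitor genes ranged widely: PR10 (GRMZM2G112524) had 25.5, 24.3 and 97.2 RPKM, the chitinase chiB (GRMZM2G005633) 20.9, 30.5 and 89.2, and the proteinase inhibitor MPI (GRMZM2G028393) 2.46, 13.9 and 75.6. Of the 5 IDs on the list, 4 were highest in replicate 3, against 9644 of the 28579 IDs above 0. The exception was RIP1 (GRMZM2G052546), at 1.31, 0.979 and 1.28 RPKM. The ribosome-inactivating protein gene rip1 (GRMZM2G063536) was near the bottom of the table, with a mean of 0.0369 RPKM at rank 28486.

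Of 13 IDs of endosperm transcription factors, 8 (61.5%) had 1 RPKM or more, a share near the 63.4% of all IDs, and the median was 2.75 RPKM against 1.59 over all IDs. The prolamin-box binding factor pbf1 (GRMZM2G146283), a DOF factor that acts with Opaque-2 on zein promoters, was the highest at 23.5, 38.4 and 44.2 RPKM. Another ID of the same name, GRMZM2G146267, had 4.92, 5.01 and 5.58 RPKM. Each of these IDs was paired with 2 reference genes, so the level of pbf1 is uncertain. The aleurone regulator Nkd1 (GRMZM2G129261) had 20.9 ± 1.28, and the O2-related bZIP gene ohp1 (GRMZM2G016150) had 5.23 ± 0.225 RPKM (SD, n = 3 each). A gene listed both as nac4 and as Asn1 (GRMZM2G154182) had 370.3 ± 79.3 RPKM (SD, n = 3), rank 61.

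The tissue label was checked against marker genes of other kernel parts. The 11 basal transfer layer markers summed to 70.9, 204 and 31.6 RPKM, and all 11 were lowest in replicate 3, against 10208 of the 28579 IDs above 0. Among them BETL1 (GRMZM2G082785) had 31.4, 130.04 and 14.0 RPKM, and MRP1 (GRMZM2G113203), the regulator of that layer, had a mean of 0.0902 RPKM. The 2 embryo-surrounding region markers summed to 1.87, 9.75 and 1.32 RPKM, and the 5 aleurone markers to 16.4, 14.7 and 13.9. The 6 embryo markers summed to 380.4, 478 and 922 RPKM, highest in replicate 3 through glb3, while 4 of the 6 were lowest there. The oleosin gene ole16 (GRMZM2G337229) had 13.6, 10.2 and 1.89 RPKM and the embryo globulin glb1 (GRMZM2G067919) 5.86, 6.04 and 1.32, whereas wox2A (GRMZM2G108933) had 1.53, 2.24 and 1.82. The 3 green tissue markers summed to 5.16 to 6.38 RPKM, and no ID matched the pericarp and nucellus list. No list had a defining marker at 0 in its mean. Replicate 3 thus had the highest sum over all zein lists (6299, 8693 and 22437 RPKM in replicates 1 to 3), though not of the 22-kDa list, and the lowest of basal transfer layer markers. Between replicates 1 and 2 both sums were higher in replicate 2. The part of tissue make-up in these differences was not tested. In bulk endosperm, fewer cells of a layer and less RNA per cell cannot be told apart.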

How the data were processed

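RPKM values, 1 column per RNA library, were deposited by the authors. The read classes were deposited by the authors as counts per library. Per the submitters' processing notes, the tools include MACS2 2.1.0.20140616, Bowtie2 2.1.0 and TopHat2 2.0.9. The same notes list edgeR 3.2.4, Trimmomatic and bedtools 2.17.0, with B73 RefGen_v3 as the genome and no roles. The scale factor, strand use and treatment of multiply mapped reads are unstated in the labels and file headers. Uniquely mapped reads per o2 library (42437810 to 48169603) limit the precision of low values, but reads per gene are not known, so no counting intervals are given. No filter was applied.

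Means, SDs, CVs, shares and ranks were computed in Python 3.11.15 with pandas 2.3.3, with checks on simulated data. No test was run. Of the 28580 IDs, 12658 were paired with a gene of the Zm-B73-REFERENCE-NAM-5.0 table, used only for names, and 1770 got a name; 407 met 2 or more genes. The 22 lists match symbols. Members and lists were chosen with earlier results of these data known; after seeing the data, 21 matches were removed and 21 members added. Named are o2, the 20 highest IDs, the 30 highest with a name, up to 6 per list, and the 8 largest and 8 smallest CVs among named genes of 10 RPKM or more; not every one is described. No sequences were used here.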

Additional observations from a re-analysis of the deposited data

How the results depend on the processing

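The shares, counts and spreads were recomputed under 13 alternatives. No paired analysis was possible because no result comes from a test. With 1 replicate left out, the share of the 10 highest IDs ran from 14.4% to 18.0%. That of the 100 highest ran from 35.6% to 41.5%. The share of the zein lists, which leave out unnamed IDs parallel to zeins, ran from 3.61% to 6.33%. The median CV at 10 RPKM or more ran from 9.89% to 12.0% (13.2% with all 3 libraries). The median SD of log2 at 1 RPKM or more ran from 0.14 to 0.15 (0.18). Spreads over 2 libraries are smaller by construction. Scaling each library to the same fixed sum (as for TPM) put 26717 IDs at 1 or more in place of 18132. It put 1225 IDs at 100 or more in place of 206. Both changes were set by the larger unit. The same scaling gave a median CV of 17.3% and a median SD of 0.28. Without the 10 highest IDs outside the zein lists, the 10 and 100 highest held 10.6% and 30.1%, and 605 IDs on average reached 50% of the sum. With parallel IDs counted once, which was added after the data had been seen, the 100 highest held 29.9% and 647 IDs reached 50%. A pseudocount of 1 or 0.01 gave a median SD of 0.14 or 0.18. The other shares and numbers of IDs that reached 50% moved by less than the SD between libraries, and the other counts by less than 1.5 times. A spread has no SD between libraries. Under the other settings the median CV ran from 12.2% to 13.2% and the median SD from 0.178 to 0.181. Shares here are of RPKM and do not count reads.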

Other observations

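An ID without a name, GRMZM2G589557, chosen after its values were seen, had 0.250, 0.112 and 85.0 RPKM in o2 replicates 1 to 3, the largest excess of replicate 3 among IDs of 10 RPKM or more. Among named genes outside the lists, the PEP carboxykinase gene pck2 (GRMZM5G870932) had 18.4, 18.2 and 40.5 RPKM, and the ferritin gene fer1 (GRMZM2G325575) 16.5, 10.6 and 4.55. The gene plt1 (GRMZM2G101958) had 58.7, 55.6 and 6.07 RPKM and prp2 (GRMZM2G102356) 20.3, 17.5 and 1.93, both lower in replicate 3. The small heat shock gene hsp22 (GRMZM2G007729) had 68.0, 31.4 and 13.5 RPKM and Hsp70 (GRMZM2G310431) 94.2, 166 and 42.4. The 14 heat shock and late embryogenesis genes summed to 660.01, 589.8 and 377 RPKM. Of these, 10 were lowest in replicate 3, against 10208 of the 28579 IDs above 0.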
